A study of Mus musculus with 26 samples.

Results

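Meiosis and the defence of the germline against transposons depend on genes that are used almost nowhere outside the gonad. The 37 genes described here belong to that programme: 2 germ cell RNA-binding genes, 13 genes of the piRNA pathway, 6 genes of the synaptonemal complex, 3 meiotic cohesin genes, 2 HORMA domain genes, 7 genes of meiotic recombination and 4 other germ cell genes. They were taken by name from the 49943 genes of the RefSeq annotation (GRCm38), and every CpG position inside a gene's span or within 2000 bp of it counted as a position of that gene. The measurement was reduced-representation bisulfite sequencing (RRBS), in which DNA is cut at CpG-rich sites and unmethylated cytosines are converted, so that each read of a CpG is either methylated or not. Each value is the share of methylated reads, in percent, on a given strand at a given position. A position was used in a mouse where it had at least 10 reads.

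The samples were 26 libraries of sperm from the cauda epididymis of male mice in 6 groups. SSCT F0 (n = 3) were sterile W/W-v (WBB6F1/J) males whose testes had received spermatogonial stem cells (SSCs) of neonatal DBA/2J mice, propagated in culture for at least 5 passages, so that their sperm was of donor DBA/2J origin. Control F0 (n = 3) were DBA/2J males, and both F0 groups were aged 16 to 18 months. The offspring were DBA/2J mice aged 3 months: control F1, SSCT F1 sired by the transplanted males, SSCT F2/M born to SSCT F1 mothers and SSCT F2/P sired by SSCT F1 fathers (n = 5 each, 20 in all). All 3 SSCT F0 libraries were made from less DNA than the rest, so that low input, host strain and transplantation cannot be told apart in that group. The groups follow the sample titles. A heatmap published with the study uses other names for the same offspring libraries. In it the set titled control F1 changes places with that titled SSCT F2/M, and the set titled SSCT F1 with that titled SSCT F2/P. The treatment entries in the sample labels mark the set titled SSCT F2/M as wild type, like control F1. Every difference between offspring groups below is therefore conditional on the titles, and a test over the 4 sets that needs no names is given beside them.

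In somatic cells, many promoters of this programme are methylated and silent, and the methylation is removed when primordial germ cells are reprogrammed. The genes are then switched on at differing stages of the germline, while the bodies of genes and the spaces between them regain methylation. Mature sperm no longer transcribes them, and its DNA still carries the pattern set in the germline. A low promoter level in these genes is thus also a check for DNA of other cells in a sperm sample.

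The promoters of 5 of the genes are shown because the levels and the differences described below lie in them. Each line gives the 250 bases before the gene start, from the RefSeq promoter table of GRCm38.p6, read 5′ to 3′ in the direction of the gene. The CpGs in capitals had at least 10 reads on at least 1 strand in all 23 mice outside SSCT F0, and those in lower case did not. Ddx4 lies on the minus strand and its bases are chr13:112652311-112652560. Sycp1 is on the minus strand (chr3:102936101-102936350), as are Smc1b (chr15:85131958-85132207) and Tdrd5 (chr1:156303349-156303598). Hormad1 lies on the plus strand and its bases are chr3:95559427-95559676.
Ddx4: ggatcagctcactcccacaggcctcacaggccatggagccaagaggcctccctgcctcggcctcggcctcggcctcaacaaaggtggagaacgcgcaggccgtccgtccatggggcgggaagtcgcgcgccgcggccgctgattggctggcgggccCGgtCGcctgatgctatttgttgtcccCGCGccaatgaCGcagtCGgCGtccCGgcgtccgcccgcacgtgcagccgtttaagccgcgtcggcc
Sycp1: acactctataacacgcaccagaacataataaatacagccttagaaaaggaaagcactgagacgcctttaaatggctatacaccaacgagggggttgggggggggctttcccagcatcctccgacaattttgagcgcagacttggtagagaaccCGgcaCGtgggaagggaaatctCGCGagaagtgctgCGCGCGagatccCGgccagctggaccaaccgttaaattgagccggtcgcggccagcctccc
Smc1b: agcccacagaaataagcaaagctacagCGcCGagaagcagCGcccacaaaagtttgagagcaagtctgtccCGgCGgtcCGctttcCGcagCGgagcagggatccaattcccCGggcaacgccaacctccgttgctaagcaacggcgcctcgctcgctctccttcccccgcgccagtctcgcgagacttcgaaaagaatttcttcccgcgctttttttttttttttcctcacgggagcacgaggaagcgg
Hormad1: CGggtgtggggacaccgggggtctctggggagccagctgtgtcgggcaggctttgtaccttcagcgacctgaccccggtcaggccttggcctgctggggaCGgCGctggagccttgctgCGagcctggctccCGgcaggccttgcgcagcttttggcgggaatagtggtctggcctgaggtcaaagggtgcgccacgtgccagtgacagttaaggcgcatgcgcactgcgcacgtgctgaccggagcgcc
Tdrd5: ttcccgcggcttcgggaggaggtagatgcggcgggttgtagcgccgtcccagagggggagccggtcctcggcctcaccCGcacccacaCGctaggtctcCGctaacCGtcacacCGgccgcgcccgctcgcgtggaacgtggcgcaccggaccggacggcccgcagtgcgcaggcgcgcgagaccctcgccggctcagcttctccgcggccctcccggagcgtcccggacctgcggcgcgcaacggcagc
Of the CpGs in these windows, 8 of 31 were measured in Ddx4, 8 of 17 in Sycp1, 9 of 25 in Smc1b, 5 of 19 in Hormad1 and 5 of 40 in Tdrd5. RRBS therefore read a stretch of each promoter and not its whole length.

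As a group the promoters were rich in CpGs. Over the 31 genes with an entry in the promoter table, the 300 bases around the start (250 before and 50 after) had a median GC content of 61.7%, against 53.3% over all 27025 entries. They held a median of 18 CpGs against 8, and the ratio of observed to expected CpGs had a median of 0.686 against 0.415. The sequence CACGTG, a core that several transcription factors recognise and that reads the same on both strands, was present in 13 of 31 (41.9%) and in 8.09% of all entries. GGCGGGA, on either strand, was present in 8 of 31 (25.8%) against 12.7%. AACNGCC, also on either strand, was present in 10 of 31 (32.3%) against 13.6%. TGACGTCA, which also reads the same on both strands, was present in 0 of 31 against 2.03%. CACGTG appears in the printed lines of Ddx4, Sycp1 and Hormad1. Distances are in bp from the gene start, negative before it. In Sycp1 its CpG at -92 had a median of 0% on either strand in 24 and 25 mice, with a highest value of 14.5%. In Ddx4 its CpG at -27 was read in 21 and 22 mice with a median of 0% and a highest value of 35.7%. The CpGs of the pair of copies in Hormad1 (at -55 and -18) were read on the minus strand in 21 mice, with a median of 0% and a highest value of 44.4%. A match says only that the letters are there, and these readings give the methylation of those letters in sperm.

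The genes had 3620 listed positions in any library, and 421 of them had at least 10 reads in all 23 mice outside SSCT F0, out of 434653 such positions in the genome. Each of these 23 mice had between 1403 and 1732 member positions with at least 10 reads, against 1495, 946 and 112 in SSCT F0 replicates 1 to 3. The 421 common positions belonged to 31 genes. A promoter was taken as 500 bp on either side of the gene start, which the table gave for 31 genes. It gave none for Tdrd6, Rnf17, Spo11, Meiob, Piwil2 and Tex15. Common promoter positions existed for 19 genes (152 positions), and 7 of these promoters rested on fewer than 5 positions. All counts of promoter levels below concern these 19, unless other positions are named.

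The promoters of the programme were nearly free of methylation in sperm of control F0 and of the 4 offspring groups. Of the 19, 18 had a mean below 10% in each of the 4 offspring groups, and 10 had a mean below 5% in each. The median over the 19 of the mean of 20 offspring was 2.74%, with a range of 0.317 to 28.8%. Over the 11589 promoters measured in the same way across all genes, the median was 1.80%, 90.9% were below 10% and 5.89% were above 50%. Per mouse, the median over the measured member promoters was 2.54% ± 0.857 in control F0 (SD, n = 3), 2.03% ± 0.425 in control F1, 1.53% ± 0.657 in SSCT F1, 1.94% ± 0.146 in SSCT F2/P and 1.90% ± 0.585 in SSCT F2/M (SD, n = 5 each). In SSCT F0 it was 0.709% ± 0.661 (SD, n = 3), over the part of the promoters that each of those mice covered. The mean over the 7 promoters covered in replicate 3 was 22.6%, and the SSCT F0 means were 36.4% in Tex14, 17.2% in Hormad1, 8.68% in Smc1b and 8.29% in Prdm9, with the highest mouse at 99.85, 33.2, 25.1 and 21.0%. With promoters of 1000 bp on either side the order of SSCT F1 and control F1 turned, at 3.54 and 2.95%, and the SSCT F0 value was 1.75%. The SSCT F0 value was 0.329% without replicate 1 and 1.57% at a minimum of 5 reads. Of the 437 promoter values of single mice outside SSCT F0, 50 were above 10% and 21 above 20%. Without Tex19.1 these counts fell to 29 and 3 of 414, 103 values were at 0%, and the highest was 34.4% in Brdt.

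**Figure D1:**
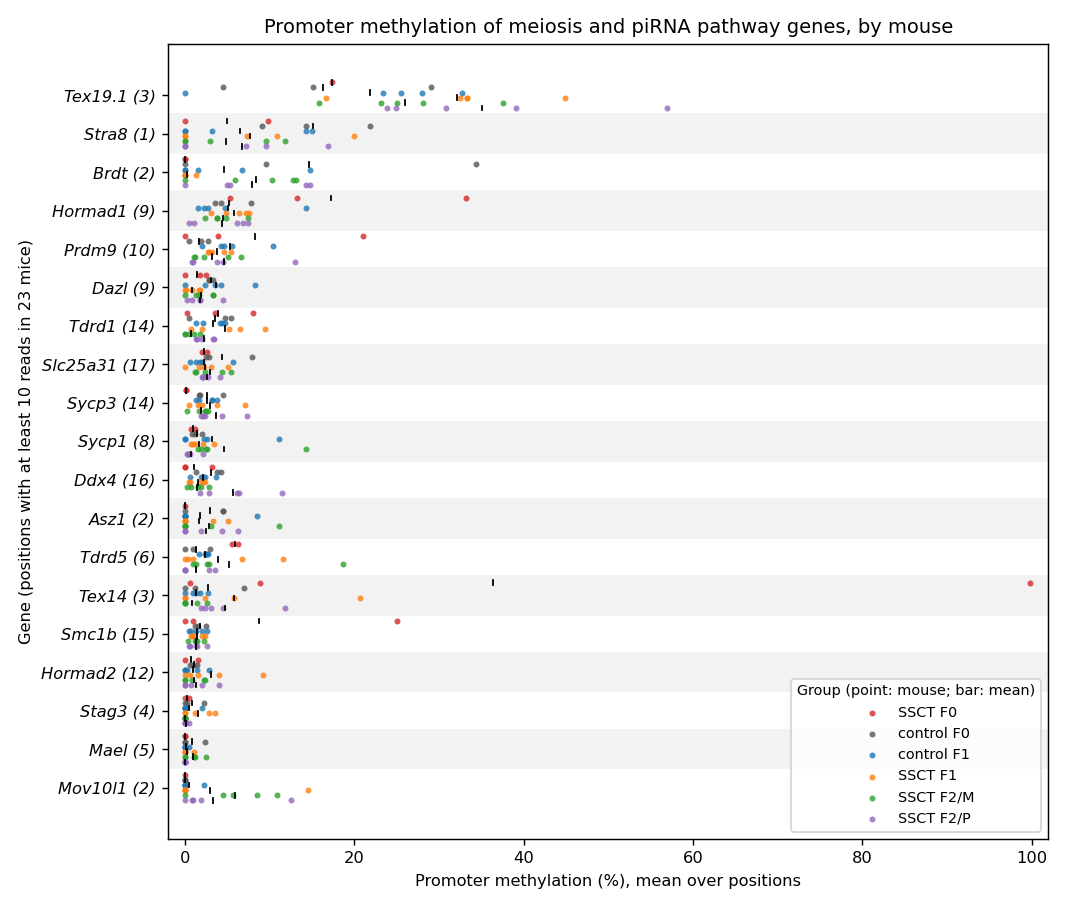
Promoter methylation (x axis, percent, mean over positions with at least 10 reads) of the 19 measured genes (y axis, with the number of common positions), ordered by their level in control mice. Each point is a mouse, coloured by group, and each black bar is a group mean. Most points lie below 10%. Higher ones include those of Tex19.1, which spread from 0 to 56.9%, several mice in Brdt (up to 34.4%) and Stra8 (up to 21.8%), and SSCT F0 mice in Tex14, Hormad1, Smc1b and Prdm9.

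The 2 RNA-binding genes were low. Ddx4, the Vasa RNA helicase that marks germ cells, had offspring values over 16 positions with group means of 2.12% ± 1.11 in control F1, 1.47% ± 0.887 in SSCT F1, 1.40% ± 1.03 in SSCT F2/M and a higher 5.71% ± 3.79 in SSCT F2/P (SD, n = 5 each). The SSCT F2/P mice were at 6.18, 6.40, 11.4, 1.77 and 2.77%, and the control F1 mice at 0.568, 1.84, 3.65, 2.16 and 2.37%. The 3 higher mice of SSCT F2/P lay above every other offspring mouse and the lower ones among them. Over the 4 sets the difference in Ddx4 had an unadjusted p of 0.0447 and an adjusted p of 0.942 (limma F test). Dazl, which binds mRNAs and promotes their translation in germ cells, was at 3.00% in control F0, 3.66% in control F1, 0.867% in SSCT F1, 1.81% in SSCT F2/P and 1.89% in SSCT F2/M over 9 positions.

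In the piRNA pathway, small RNAs bound by PIWI proteins guide the silencing of transposons, and Tudor domain proteins assemble the machinery. Of its 13 members, 6 promoters were measured. Mael, needed for transposon silencing in spermatocytes, was between 0 and 2.50% in every offspring mouse (5 positions). The Tudor domain genes Tdrd1 (14 positions) and Tdrd5 (6 positions) had offspring group means of 0.65 to 4.75% and 1.26 to 5.23%. Asz1, which anchors the machinery at mitochondria, and Mov10l1, the helicase that processes piRNA precursors, had 2 positions each, with offspring group means of 1.68 to 2.83% and 0.45 to 5.89%. At this number of positions a mean changes strongly with a few reads, and single mice reached 11.1% in Asz1 and 14.5% in Mov10l1.

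Tex19.1, a germ cell gene that restrains retrotransposons, stood above the other measured promoters over its 3 common positions. It is described mouse by mouse because its values were seen to stand apart: its mean over the 8 control mice was 19.8%, just under the 20% set for that. Control F0 mice were at 15.2, 4.52 and 29.1%, and control F1 mice at 28.0, 0, 23.3, 25.5 and 32.7%. SSCT F1 mice were at 44.9, 32.5, 33.3, 16.7 and 33.3%. SSCT F2/M mice were at 15.8, 28.2, 37.5, 25 and 23.2%, and SSCT F2/P mice at 23.8, 39.1, 30.8, 24.9 and 56.9%. All groups overlapped, and the only SSCT F0 mouse with reads, replicate 1, was at 17.4%. The level came from a few of its positions. Of the 3 common ones, at +210, +214 and +228, the medians over mice were 14.3, 64.0 and 0%, and at +214 the offspring ranged from 0 to 100%. The position at +180, read in fewer mice, had a median of 16.1%.

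For the other members of the pathway the promoters were read only in part. Tdrd9, a piRNA helicase, had a promoter median of 2.63% (0 to 21.2%) over the 19 offspring with positions of their own. Piwil4, the nuclear PIWI protein of fetal male germ cells, was highly methylated around 1 of its starts in the table. Around that at chr9:14718387 the mean per mouse of the positions read was 78.1 to 100% in the 20 offspring, with a median of 100%. Piwil4 lies on the minus strand, so this start is downstream of the other. The promoter sequence at this start holds 0 CpGs, against 11 at the other. The rest of the gene's span with its flanks, described below, was highly methylated too. Around the other start, chr9:14740672, 6 positions had 10 reads in 1 offspring mouse only, with a mean of 16.7%, and 5 of them were at 0%. Piwil1 had no promoter position with 10 reads in any mouse. Tex15, Rnf17, Tdrd6 and Piwil2 have no start in the table, so both ends of the span were read for them. At the lower end of the Rnf17 span 4 positions gave 0 to 16.5% in offspring, and at that of Tex15 1 position gave 0 to 47.1%.

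The genes that build meiotic chromosomes were as low. Sycp1, the transverse filament of the synaptonemal complex, had offspring group means of 0.72 to 4.54% over 8 positions. Sycp3, a component of the chromosome axis, had 1.88 to 3.61% over 14. By each mouse's own positions, Sycp2 was at a median of 0.68% (0 to 13.7%) in 20 offspring, and Tex12 at 1.82% (0 to 42.1%) in 9. Syce3, a central element protein, was at 0% in all 5 offspring with reads. Smc1b, the meiotic SMC subunit of cohesin, was at 1.24 to 1.37% in the 4 offspring groups over 15 positions, the narrowest range among the 19. Stag3, its meiotic stromalin partner, was at 0 to 1.52% over 4 positions, and Rec8, the meiotic kleisin, at a median of 0% (0 to 3.85%) in 6 offspring. The HORMA domain genes, whose proteins mark chromosome axes that are not yet synapsed, had offspring group means of 4.35 to 5.78% in Hormad1 (9 positions) and 0.88 to 3.09% in Hormad2 (12 positions).

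In recombination genes the promoter coverage was thin. Prdm9, the methyltransferase that places recombination hotspots, had offspring group means of 3.21 to 5.34% over 10 positions. Dmc1, the meiotic strand exchange recombinase, was at a median of 2.10% (0 to 8.53%) in the 20 offspring by their own positions. Msh4, which stabilises crossover intermediates, was at 100% in 2 offspring with at most 2 positions, and Msh5 had no promoter position with 10 reads in a mouse. Mei1 had none around the start in the table, which lies inside its span. In the window at the lower edge of that span (chr15:82070001-82071000), 4 positions had means of 4.42% in SSCT F2/P and 0.544% in control F1. These were not counted as a promoter. Spo11, which makes the double-strand breaks, and Meiob have no start in the table. Among the other germ cell genes, Slc25a31, a testis ADP/ATP carrier, was at 2.28 to 2.90% over 17 positions. Tex14, needed for intercellular bridges, was at 0.788 to 5.74% over 3 positions, Brdt, the testis bromodomain protein, at 0.25 to 8.39% over 2, and Stra8, the gene by which retinoic acid starts meiosis, at 4.85 to 7.63% over 1.

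Other genes of the same pathways were as low. Of 44 other meiosis genes, 14 had a measured promoter, with a median of 1.58% (0.223 to 8.84%) in the offspring. Of 18 other piRNA genes, 7 had one, with a median of 2.06% (1.26 to 6.23%).

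Away from their starts many positions of the same genes were highly methylated. Member distances were taken from the nearest start of the gene itself, and those of all positions from the nearest start of any gene. The shares are therefore not matched by distance, and genes without a start in the table are left out of them. The start given for Mei1 lies inside its span, and positions at the lower edge of that span count as beyond 2000 bp. Within 200 bp of a start, 95 member positions had a median of 1.18% (mean of 20 offspring), and 98.9% of them were below 10%, against 97.3% of all such positions. Beyond 200 and up to 500 bp, 57 positions had a median of 3.08% and 93.0% were below 10%, against 96.4%. Beyond 500 and up to 1000 bp, 50 positions had a median of 4.89% and 70% were below 10%, against 90.2% of all positions at that distance. Beyond 2000 bp, 145 positions had a median of 97.7%, and 63.4% were above 90%, against 44.9% of all positions. Over all 421 common member positions, at any distance, 24.7% were above 90%, against 26.9% of all positions. These positions share genes and reads, so the shares are a description.

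**Figure D2:**
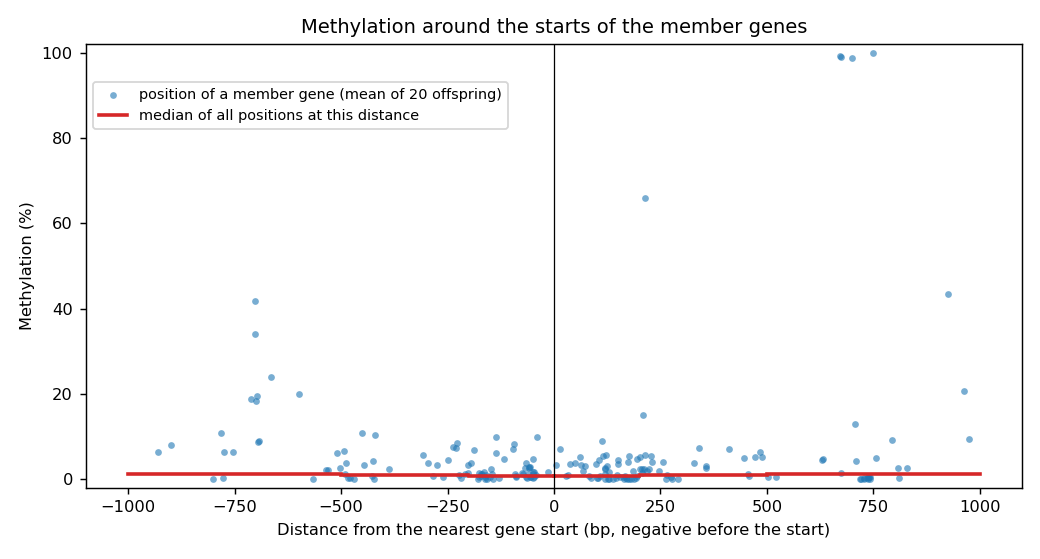
Methylation (y axis, percent, mean of the 20 offspring) of each common member position against its distance from the nearest start of its gene (x axis, bp, negative before the start). Red lines are the medians of all positions at that distance from the nearest start of any gene. Within 200 bp 98.9% of the points lie below 10%, and beyond 500 bp, up to the edge of the plot at 1000 bp, 15 points of 6 genes lie at 10% or more.

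Outside the promoters, the gene spans with 2000 bp on either side ranged from highly to hardly methylated. Syce1, a central element gene, had an offspring median of 99.2% over 6 positions, Hormad2 99.6% over 9, Piwil4 98.8% over 9, Asz1 99.8% over 5 and Prdm9 99.8% over 5. Tdrd9 was at 93.7% over 20 positions, with a range of only 91.3 to 96.1% between the 20 offspring. Tex14 (66.2%, 20 positions), Stag3 (41.8%, 23 positions) and Mei1 (32.3%, 38 positions) were intermediate. The Mei1 positions include chr15:82070138, near the lower edge of its span. Tdrd6 (14.6%, 42 positions) and Tex15 (16.7%, 19 positions) were low over much of the part that was read. They have no start in the table, so no promoter could be set aside and their values cover the whole span with its flanks. Dazl was at 0.93% over 15 positions outside its promoter. By each mouse's own positions, the spans of Piwil1 and Rec8 had medians of 99.4% (91.8 to 100%) and 95.1% (50 to 100%), and those of Syce3 and Meiob 77.5% (45.5 to 97.6%) and 12.4% (0.56 to 25.8%).

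The low promoters were set beside marks of other cells. At their imprinted regions, maternally methylated genes are unmethylated in sperm and methylated on 1 allele in somatic cells. Of 17 such genes, 10 had a measured promoter, with a median of 1.80% (0.816 to 3.43%) for the means of the offspring. These promoters lie around the gene starts, and whether they hold the imprinted regions was not checked. A low value there therefore does not measure the share of other cells. In single SSCT F0 mice some were higher: Peg3 was at 3.91, 7.45 and 49.9% in replicates 1 to 3, Igf2r at 20.0% in replicate 1, and Nap1l5 and Zrsr1 at 21.5 and 25% in replicate 2. The other 6 lay between 0 and 9.09% in the SSCT F0 mice that covered them. Single mice outside SSCT F0 also exceeded the range of the offspring means. The highest control F0 mouse was at 10.96% in Igf2r, 6.01% in Zrsr1, 2.58% in Nap1l5 and 0.678% in Peg3. The highest offspring mouse was at 12.29% in Nap1l5, 11.43% in Zrsr1, 5.24% in Peg3 and 3.49% in Igf2r. Paternally methylated genes (2 of 4 measured) were at 19.6% for Meg3 and 0.257% for Rasgrf1 in offspring. These values come from 6 and 2 positions around the gene starts. Whether those hold the paternally methylated regions was not checked, so the values do not describe the paternal imprints. Of 12 leukocyte genes 4 were measured, from 0.986 to 36.1%, the highest at the single position of Cd37. Of 12 genes of epididymal epithelium 2 were measured, Epcam at 8.07% and Krt18 at 2.49%. The part that other cells had in any SSCT F0 value was not tested.

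The comparison of SSCT F0 with control F0 asks whether sperm that formed from cultured and transplanted stem cells differed from that of untreated males. The libraries limit it. SSCT F0 replicate 3 listed 305946 positions and replicate 2 1123552, against 1977072 to 2232455 in the other libraries. The median coverage of positions with at least 10 reads was 392 in replicate 3 and 23 to 41 in the others, and 6.73% of its reads at CpGs were methylated, against 19.9% in replicate 2, 30.4% in replicate 1 and 28.4 to 40% in the remaining libraries. Of the 421 member positions, 93.6, 70.3 and 10.9% had 10 reads in SSCT F0 replicates 1, 2 and 3. Highly methylated ones (above 90% in offspring) were lost more often, with 86.5, 33.7 and 3.85% left, against 98.1, 84.3 and 13.1% of those below 10%. In these mice 73.9, 88.2 and 89.1% of member values were exactly 0 or 100%, against 65.1 to 77.2% in control F0.

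Some single positions in SSCT F0, in the members as in the genome, were switched nearly from end to end. Among member positions that were below 10% in the offspring, 1 of 263 was above 50% in replicate 1, 3 of 226 in replicate 2 and 6 of 35 in replicate 3, against 0 of 268 in each control F0 mouse. Over all positions of the genome these shares were 0.275, 1.53 and 2.12% in SSCT F0 and 0.0269 to 0.137% in control F0. The member shares of replicates 1 and 2, 0.380 and 1.33%, were near those of the genome. Those positions in replicate 3 included neighbours in Tex14 from +194 to +211, with 456 to 458 reads. In the other direction, 0 of 90, 3 of 35 and 3 of 4 member positions above 90% in the offspring were below 50% in replicates 1 to 3, against 1.10, 8.14 and 38.0% of all such positions, so that the share in replicate 2 was near that of the genome. Control F0 replicate 1 had 1 of 104 such member positions and the other control F0 mice 0. The 3 in replicate 3 were neighbours in Mov10l1 (+33323 to +33339), at 0% with 400 to 403 reads, whereas the highest of their offspring means was 96.4%. The 3 in replicate 2 lay in Tdrd9, at 0 to 5.56% with 17 to 37 reads. A position in Mei1 (chr15:82070138) was at 100% in replicate 3 and at 1.18% in the offspring, and the position of Smc1b at -222 was at 100% with 430 reads against 1.08%. It belongs to the first CpG in capitals of the Smc1b line printed above.

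**Figure D3:**
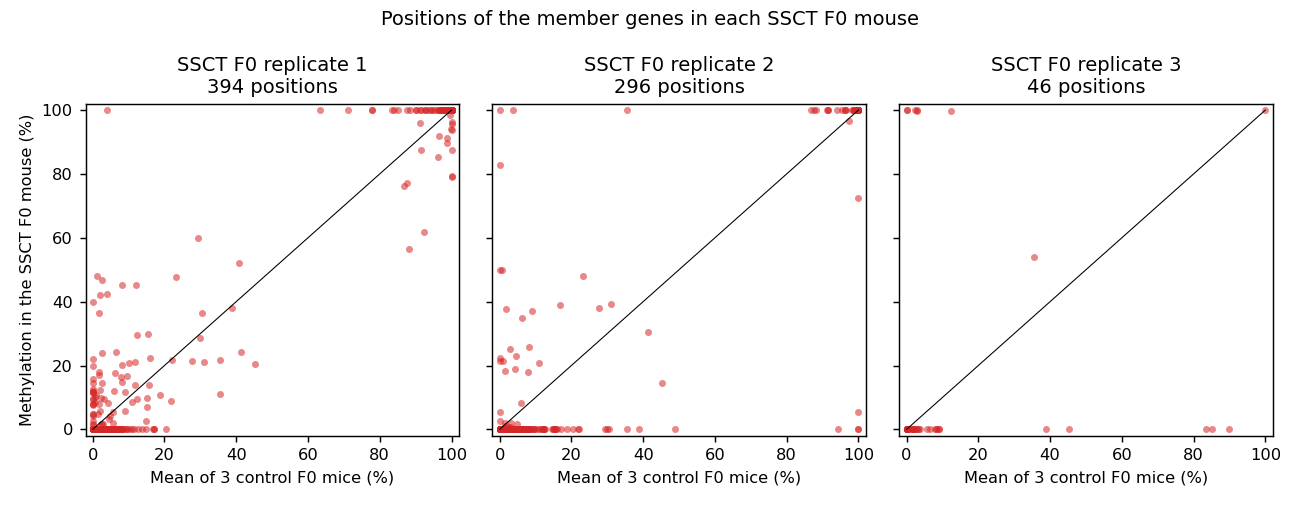
Methylation of each member position in an SSCT F0 mouse (y axis, percent) against the mean of the 3 control F0 mice (x axis, percent), with 1 panel for each SSCT F0 mouse and the line of equal values. Most points of replicate 1 follow the line, and in replicates 2 and 3 points lie near 0 or 100% far from it.

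A CpG was called differentially methylated (DMC) where the chi-square test of a logistic model, which pools the reads of the mice, had a q below 0.01 and the pooled difference was above 25 percentage points. These criteria are those of the study's methods. Windows of 1000 bp (DMRs) were called the same way. With 10 reads in all 6 mice, 44 member positions of 12 genes could be tested, and 10 were called, against 5.83% of the 82246 positions tested in the genome. Of the 10, 7 were higher in SSCT F0 (2.63% of all positions were) and 3 lower (3.2%). Of 17 member windows 3 were called, against 10% of all windows. When the test was scaled by the spread between mice (F test), 0 of 44 positions and 0 of 17 windows were called, as were 0 in the genome, while 2 member positions (1.1% of all) and 1 window (2.32% of all) had p under 0.05 before adjustment together with more than 25 points. On simulated counts with 3 mice a group, drawn without spread between mice, that F test found 0 of 200 positions changed by 30 points. Its 0 therefore carries no information here.

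Of the 10 calls, 6 were higher and had their highest value, near 100%, in replicate 3. Tdrd5 was at 0, 2.86 and 100% in SSCT F0 replicates 1 to 3 at -151 and at -172. Control F0 was at 0, 6.67 and 0% at the first of these and at 0% in all mice at the other. In the Tdrd5 line -172 is the first CpG in capitals and -151 the third, and 23 to 493 reads lay behind each value. Hormad1 at -424 was at 29.4, 0 and 99.6% against 0, 23.4 and 13.5%, and so the groups overlapped. Tex14 had 3 calls from +194 to +211, with 100, 100 and 99.6% in replicate 3 and at most 1.72% in replicate 1. In replicate 2 they were at 25.2, 0.625 and 0.629%, and no control F0 mouse was above 6.94%.

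The other calls were mixed. Tdrd9 at +241 was at 0, 100 and 0% against 0% in each control F0 mouse. Dazl at +754 was lower, at 0% in all 3 SSCT F0 mice against 32.4, 40.4 and 0%, so that the control mice themselves were split. Tex14 was lower at 2 positions in its body. At chr11:87462856 (+57791) SSCT F0 was at 20.6, 14.5 and 0% and control F0 at 42.6, 48.0 and 45.0%, with 63 to 477 reads. Of the 44 member positions tested, called or not, it alone had no overlap between the groups (2.27%), against 3.09% of all positions. Its p was 0.1 in the two-sided exact permutation test, which 3 against 3 mice cannot go below. The 20 offspring ranged from 24.6 to 70% there, above the 3 SSCT F0 mice. At chr11:87462939 SSCT F0 was at 38.0, 0 and 0% against 37.5, 39.6 and 39.8%.

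Without replicate 3, at the same 44 positions, 4 were called (4.42% of all positions): the Tex14 position at chr11:87462856, Tdrd9, Dazl, and Prdm9 at -488, with 15.7 and 82.8% against 0% in each control F0 mouse. Leaving replicate 3 out also opened more positions, and 23 of 605 were called, 16 higher and 7 lower, against 5.83% of all positions. Of windows, 2 of 89 were called (10.1% of all windows), and 1 of the same 17 (6.12%), in Tdrd9. The comparison at the same 44 positions was added after seeing the data.

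With the wider coverage Sycp1 had 7 of the 23 calls, all higher, and 6 of them lay between -60 and the start. At -31 SSCT F0 replicates 1 and 2 were at 59.1 and 50.0% with 22 and 66 reads, control F0 was at 0% in all 3 mice, and the 19 offspring with reads were at 0 to 3.33%. At -18 they were at 57.1 and 48.4% against 0, 30.4 and 0%, and 4 of 19 offspring were above 20%. At the 4 CpGs from -48 to -60 replicate 2 was at 56.9% with 58 reads and replicate 1 at 0%. The same 4 CpGs read on the other strand were at 0 to 5.6% in replicate 2, with 18 to 35 reads, and the CpG at -31 was at 0% on that strand in both mice, with 10 and 17 reads. Wherever both strands were read, the higher values were on 1 strand only. The last CpGs in capitals of the Sycp1 line are those of -48 to -60 on the strand that was low.

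The remaining calls without replicate 3 were mostly single-mouse values. Replicate 2 was at 100% in Smc1b (+542), Tex15, Tdrd6 and Sycp1 (+601) where replicate 1 was at 0 to 9.52% and the control F0 mice at 0 to 11.1%. The offspring at these positions had a median of 0% and reached 81.8% in Smc1b, 28.1% in Tex15, 20.7% in Sycp1 and 10% in Tdrd6. Replicate 2 was at 50% at a pair of Stra8 positions (+809 and +828), at which the 20 offspring were at 0 to 10.7%. It was at 0 to 5.56% at 3 positions of the Tdrd9 body and at 0% at 1 of Stag3, at which control F0 was at 100%. Tex19.1 was called lower at +191, where control F0 replicate 1 was at 95.2% and the other F0 mice were at 0%.

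**Figure D4:**
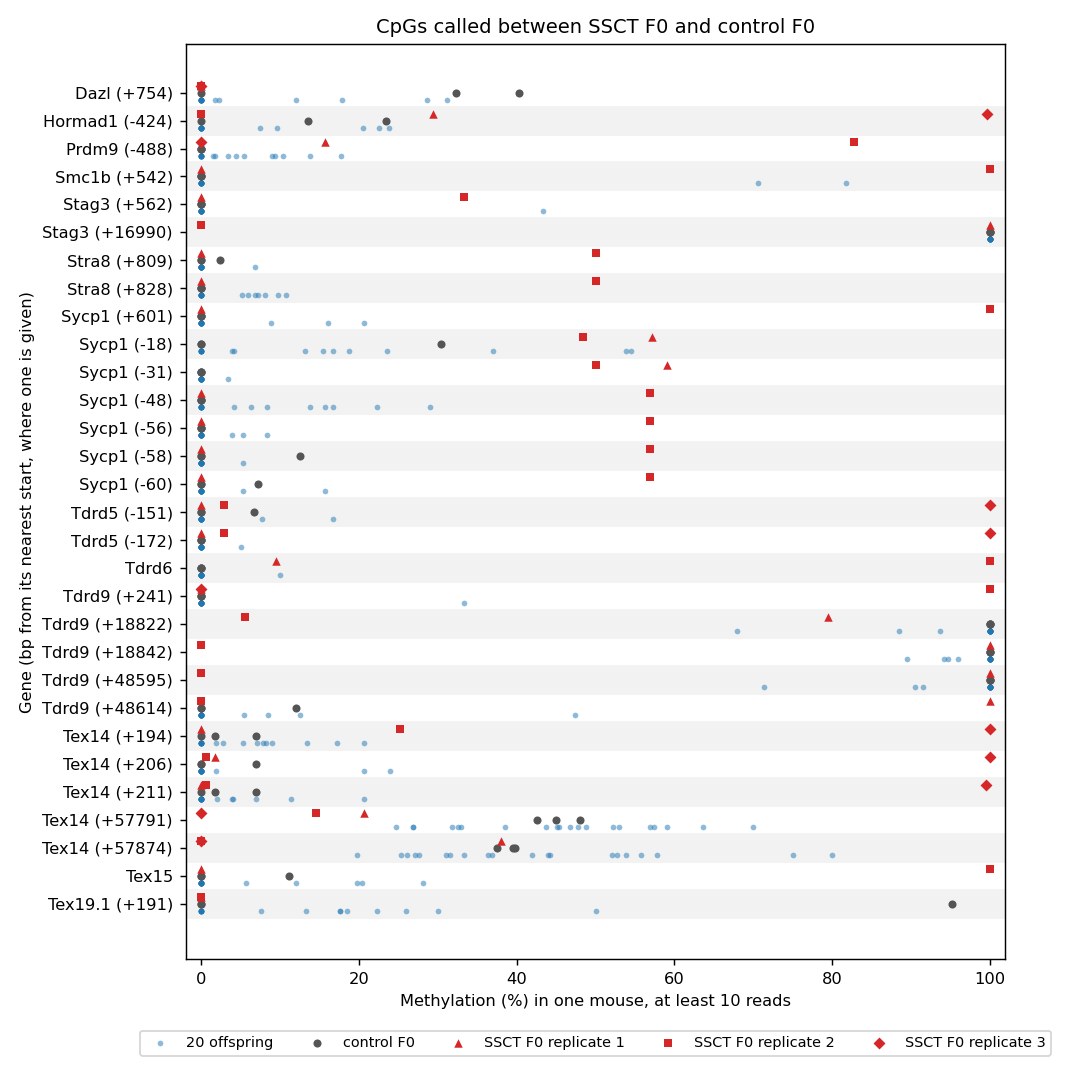
Methylation in single mice (x axis, percent) at each member CpG called between SSCT F0 and control F0, with or without SSCT F0 replicate 3 (y axis, gene and bp from its nearest start, where the table gives one). Red triangles, squares and diamonds are SSCT F0 replicates 1, 2 and 3, grey points control F0 and blue points the 20 offspring. Most red symbols far from the other mice belong to 1 mouse at a time, except in Sycp1 at -31 (59.1 and 50.0%) and in Tex14 at +57791.

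Taken as units, member promoters overlapped between the F0 groups. Of 8 member promoters with positions covered in all 6 mice, 5 were higher and 3 lower in SSCT F0, and 0 were without overlap, against 9.45% of 6611 promoters. Tex14 had the largest difference, 36.4% ± 55.1 against 2.71% ± 3.71 (SD, n = 3; exact permutation test, two-sided, p = 0.3), with mice at 0.575, 8.80 and 99.85%. Hormad1 was at 11.8, 12.4 and 33.2% against 0, 21.3 and 8.41%, and Tdrd5 at 6.25, 0.952 and 33.4% against 0, 3.33 and 0%. With limma, 0 of the 8 were called (1 of 6611 in all, 0.0151%), and 1 had an unadjusted p under 0.05 (6.73% of all promoters did), Tex14, with a log2 difference of 5.65 (SE 2.13, adjusted p = 0.659). Positions of other meiosis genes were called at 4 of 77 (3 higher and 1 lower), those of other piRNA genes at 0 of 19, and those of maternally methylated imprinted genes at 5 of 90 (4 higher and 1 lower). Those of leukocyte genes were called at 5 of 20, 0 higher and 5 lower, in Itgb2 and Lcp1. The part of leukocyte DNA in the member values was not tested.

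In the offspring the members were called at about the background rate. SSCT F1 was compared with control F1 to ask whether differences appear in the generation born from transplanted cells. Of 572 positions in 33 member genes 2 were called (0.462% of all positions), and of 109 windows 1 (0.415%). By the F test 0 were called, and 1 position (0.239% of all) and 1 window (0.223% of all) met p under 0.05 before adjustment at that difference. Both positions lay in the body of Tex14. At chr11:87422148 (+17083) SSCT F1 mice were at 0, 0, 84.6, 72.2 and 29.6% and all 5 control F1 mice at 0%. The called window held this position alone. Without SSCT F1 replicate 3 or 4 the pooled difference fell to 22.8 or 21.8 points, and neither position nor window was called. Without replicate 5 the position was still at 30.8% against 0%, but a further position entered the window, which then differed by 16.2 points and was not called. At chr11:87482839 SSCT F1 was lower, at 100, 30, 45.5, 58.6 and 38.7% against 96.3, 36.8, 80.4, 96.4 and 75%, and the groups overlapped.

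The F2 groups were compared with control F1 to follow the maternal and the paternal line. In SSCT F2/M, 1 of 631 positions was called (0.42% of all positions) and 0 of 118 windows (0.363%), and by the F test before adjustment 0 positions (0.214% of all) and 0 windows (0.188%). The called position, chr5:138275573, lies at -4936 of Stag3 in the overlap with the span of Gpc2. SSCT F2/M mice were at 5, 38.3, 0, 56.0 and 60.9% there, and control F1 mice at 7.81, 0, 4.65, 44.3 and 1.69%. In SSCT F2/P, 2 of 672 positions were called (0.43%) and 0 of 121 windows (0.392%), and by the F test before adjustment 0 positions (0.223%) and 0 windows (0.203%). At chr11:87468560 in Tex14 the SSCT F2/P mice were at 82.6, 45.3, 76.2, 69.7 and 12.8% and the control F1 mice at 8, 54.5, 3.23, 0 and 0%. The other again lay in the overlap of the spans of Stag3 and Gpc2, at chr5:138275993. There SSCT F2/P was at 47.2, 100, 53.6, 51.1 and 0%, control F1 at 57.5, 5.88, 18.6, 25 and 13.9%, and the 19 offspring with reads at 0 to 100%. All these called positions overlapped between groups, and the F test called 0 member positions in each comparison. On simulated counts of SSCT F1 and control F1, the F test found 3 of 200 changes of 30 points and 182 of 200 of 50 points, and the chi-square test 182 and 200. These counts were drawn without spread between the mice of a group. They therefore do not show how many such changes either test would find here.

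The offspring comparisons share the control F1 mice. Called offspring positions were in the spans of Tex14 and Stag3, and 0 were within 500 bp of a start of a member. The titles also bear on direction here, since under the names of the heatmap the sets of the SSCT F2/M comparison change places, and each of its differences then changes sign.

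Some member CpGs that were below the difference of 25 points showed no overlap between groups. Across the genome such positions made up 0.14, 0.14 and 0.142% of those tested in the 3 offspring comparisons, and in the members they numbered 1 of 572, 2 of 631 and 2 of 672. Sycp2 at -702 had 47.0% ± 8.34 in SSCT F1 against 23.9% ± 7.98 in the controls (SD, n = 5; two-sided exact permutation p = 0.00794, the lowest possible with 5 against 5). The pair in SSCT F2/M lay in Tdrd6, a Tudor domain gene of the chromatoid body, at 23.7% ± 12.7 against 3.52% ± 6.02 (chr17:43629176) and 21.0% ± 11.2 against 0% (chr17:43629493). Those in SSCT F2/P were lower, at 1.98% ± 1.56 against 10.7% ± 6.33 in Hormad1 at -307 and at 0% against 15.7% ± 8.81 in Tdrd1 at +123.

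limma found no difference past its threshold in member promoters between offspring groups. It called 0 of the members in each comparison and 0 promoters in all, of 12585 for SSCT F1, 12898 for SSCT F2/M and 13014 for the paternal line. Unadjusted p-values under 0.05 numbered 0, 3 and 2 among the members, and were 4.89, 4.79 and 5.04% of all promoters. The 3 in SSCT F2/M were Mov10l1 (log2 difference 2.53, adjusted p = 0.910), Stag3 (-1.94, adjusted p = 0.989) and Tdrd1 (-1.53, adjusted p = 0.989). Those in SSCT F2/P were Tdrd9 (2.25) and Tex14 (1.45). Over the 4 sets 1 member, Ddx4, had an unadjusted p under 0.05 (5.1% of all promoters did) and 0 were called by limma.

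A promoter without overlap between mice occurred for 0 of 23 members in SSCT F1 (0.644% of all promoters) and 0 of 23 in SSCT F2/P (0.853%). In SSCT F2/M it occurred for 1 of 20 (0.69%), Tdrd1. Over 20 positions covered in both groups, SSCT F2/M mice were at 1.30, 0.707, 1.30, 1.2 and 1.26% and control F1 mice at 1.59, 3.28, 2.86, 3.37 and 3.92%. The means were 1.15% ± 0.253 and 3.00% ± 0.874 (SD, n = 5; exact permutation test, two-sided, p = 0.00794 before any adjustment), a difference of -1.85 points. Unadjusted exact permutation p-values under 0.05 were also found for Mov10l1 in SSCT F2/M, 1.68% against 0.129% (p = 0.0476), and in SSCT F2/P for Dazl, 1.22% against 3.45% (p = 0.0159), Stag3, 0.115% against 0.864% (p = 0.0476), and Tex14, 4.69% against 1.34% (p = 0.0317). Each of these differences was between levels below 5%.

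Other meiosis and piRNA genes were called as rarely. In SSCT F1 these were 2 of 672 positions of other meiosis genes, both higher in Mnd1, and 1 of 217 of other piRNA genes, higher in Fkbp6. In SSCT F2/M they were 1 of 743, lower in Brip1, and 1 of 292, higher in Nanos2, and in SSCT F2/P 0 of 802 and 0 of 300.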

How the data were processed

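The series holds RRBS of cauda epididymal sperm from 26 mice. A commercial kit was used, and single reads of 50 bp were sequenced. The submitters' processing notes name FastQC, Trim Galore 0.4.1, Bismark 0.20.0, methylKit 1.7.0 and the build GRCm38/mm10. For each library the authors deposited CpG positions and strands, the methylated fraction of reads (0 to 1) and the count of reads covering the position. The strands of a CpG are listed separately. Methylated reads were recovered here as fraction times coverage count, and between 1 and 4 positions in a library did not give a whole number.

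Each library had 45609751 to 87705464 reads at CpGs. Unmethylated control DNA read 0.542 to 1.26% methylated and methylated control DNA 98.2 to 98.9%. RRBS reads carry no molecular identifiers, so read counts are not counts of molecules. At 10 reads a value moves in steps of 10%. The most alike of 325 pairs of libraries had r = 0.971 and a mean chi-square of at least 5.32 per position, and no libraries were merged.

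Positions covered by 10 or more reads in all mice compared and below the 99.9 percentile of each library were tested over the whole genome with a chi-square test of a logistic model, as methylKit does without a term for the spread between mice, with Benjamini-Hochberg q below 0.01 and a difference above 25 points. Windows were 1000 bp. Promoters (500 bp on either side of the RefSeq start) were tested with limma 3.58.1 on log2 of methylated over unmethylated reads, 1 read being added to each, and adjusted over all promoters (called at an adjusted p under 0.05). Single values were compared by the exact two-sided permutation test. Levels were means over positions with 10 reads in all 23 mice outside SSCT F0. Of the 37 genes 31 matched the promoter table by symbol. Scripts ran in Python 3.11.15 (numpy 2.4.6, pandas 2.3.3, scipy 1.17.1) and R 4.3.3, and were tested on simulated data.

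The members, gene lists and motifs were chosen with earlier results of these data known. Genes described mouse by mouse were those with a call, those with a promoter above 20% in the control mice, and those whose promoter differed between the F0 groups by more than 5 points without overlap. The CpGs named by rule were the 3 with the largest difference per comparison and all those without overlap. Chosen after their values were seen were Tex19.1, Ddx4, the other calls between the F0 groups, the calls made without SSCT F0 replicate 3, and the positions of Mov10l1, Mei1 and Smc1b far from the offspring. Alternatives were the coverage minimum, the F test, a replicate block, the promoter size, the number of positions in a window, the names of the offspring sets, and each mouse left out in turn. Per the labels replicates are biological replicates. Replicate numbers did not pair the samples. The authors' own tables of differences were not used here.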

Additional observations from a re-analysis of the deposited data

Results flagged for a closer look

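The 19 measured promoters and their median per mouse gave 78 sets of 5 offspring with differing values, and in 19 of them a mouse stood apart from the 4 others. A mouse stood apart where its gap to the nearest other value, over the range of the set, was above 0.71, the 95% limit of Dixon's test for 5 values. Chance gives about 1 in 20 for normally distributed values. In 8 of the 19 the 4 other mice were all at 0%, so that any value above 0 met the limit.

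These 8 were Mael in control F1 replicate 2 (0.476%) and SSCT F1 replicate 2 (1.07%), Stag3 in control F1 replicate 2 (2.04%) and SSCT F2/P replicate 4 (0.51%), Asz1 in control F1 replicate 1 (8.51%), Mov10l1 in control F1 replicate 1 (2.25%) and SSCT F1 replicate 1 (14.5%), and Brdt in SSCT F1 replicate 4 (1.27%). Of the others, Sycp1 had 3: 11.1% in control F1 replicate 3 against 0 to 2.64%, 14.3% in SSCT F2/M replicate 3 against 1.47 to 2.59%, and 2.09% in SSCT F2/P replicate 4 against 0.205 to 0.599%. Tdrd5 was at 18.6% in SSCT F2/M replicate 3 and at 0.877 to 2.82% in the other mice of that group. Hormad1 was at 14.3% in control F1 replicate 5, against 1.48 to 4.68%. Tex14, over 3 positions, was at 20.6% in SSCT F1 replicate 5, against 0 to 5.71%, and at 11.7% in SSCT F2/P replicate 5, against 1.90 to 4.46%. Asz1 was at 11.1% in SSCT F2/M replicate 4 against 0 to 3.06%, and Mov10l1 at 12.5% in SSCT F2/P replicate 1 against 0 to 1.83%, both over 2 positions. Slc25a31 was at 5.70% in control F1 replicate 4 against 0.627 to 2.02%. Tex19.1 was low in the mouse that stood apart, at 0% in control F1 replicate 2, against 23.3 to 32.7%.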

How the results depend on the processing

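Of 249 alternatives to 19 results, 203 left the value or count within the limit set for it and 46 moved it. These are counts and levels, which carry no sign. limma called 0 member promoters under all 90 of its alternatives. Scaled by the spread between mice (F test), 0 DMCs were called in each of the 4 comparisons and 0 DMRs in SSCT F0 and SSCT F1. At a minimum of 5 reads the DMCs were 4 in SSCT F1 and 3 in SSCT F2/M, and at 20 reads 0 in all 3 offspring comparisons, with 0 DMRs in SSCT F1. Windows with at least 3 positions gave 0 DMRs in SSCT F1. Under both other namings of the offspring sets SSCT F1 had 0 DMRs and SSCT F2/P 1 DMC. Without SSCT F0 replicate 3, at the positions of the full comparison, 4 DMCs and 1 DMR were called in SSCT F0, an alternative added after seeing the data.

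Leaving out each mouse in turn gave 9 to 23 DMCs and 2 to 5 DMRs in SSCT F0 (23 without SSCT F0 replicate 3, 5 without SSCT F0 replicate 2), 1 to 4 and 0 to 2 in SSCT F1 (4 and 2 without control F1 replicate 2, 1 DMC without SSCT F1 replicate 4 or control F1 replicate 4), 1 to 2 and 0 to 1 in SSCT F2/M (2 without SSCT F2/M replicate 2 or 3 or control F1 replicate 3, 4 or 5, and 1 DMR without control F1 replicate 1), and 1 to 3 and 0 in SSCT F2/P (1 without SSCT F2/P replicate 2). The median promoter level of SSCT F0 ranged from 0.329 to 0.929%. It was 1.57% at 5 reads and 1.40% at 20 reads, and that of SSCT F2/P was 2.10% at 5 reads. With 250 bp before to 50 bp after the start the level was 1.11% in control F1 and 1.18% in SSCT F2/P. With 1000 bp on either side it was 1.75% in SSCT F0, 3.48% in control F0, 2.95% in control F1, 3.54% in SSCT F1, 3.04% in SSCT F2/P and 2.60% in SSCT F2/M. The cause of these shifts was not tested. Same-numbered mice correlated at -0.011 to 0.0216 in their deviations, so the numbers do not pair the samples, and the replicate block changed no count by over 1.5 times.

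The few positions covered in SSCT F0 replicate 3 left 44 member positions to test between the F0 groups. Of the 37 genes, 18 had no promoter position common to the mice outside SSCT F0, so their levels were not compared over all 23 of these mice.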
